A study of Mus musculus with 35 samples.

Results

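The genes of the proteasome were followed through 9 culture passages (p2, p5 and p7, then p10, p14 and p18, then p23, p25 and p28) of mouse ovarian surface epithelial (MOSE) cells, which were taken from adult virgin C57BL/6 females and kept untreated in culture while they transformed spontaneously. Members were all genes whose array symbol began with Psm, a letter from a to g and a number. This gave 42 genes represented by 59 of the 15254 cDNA clones on the array, all of which were tested. They comprised 7 alpha and 8 beta genes of the core particle, 5 ATPase genes and 14 non-ATPase genes of the regulatory particle, 3 activators and 4 core chaperones. The remaining symbol, Psmc3ip, fits the naming rule but encodes a meiotic recombination cofactor, not a proteasome component, so that the gene counts below are over the other 41. The induced beta subunits Psmb8, Psmb9 and Psmb10, the activator Psme2 and the inhibitor Psmf1 were not analysed here.

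The proteasome degrades proteins that carry ubiquitin chains. Its barrel-shaped core particle has outer rings of alpha subunits, which gate the entry, and inner rings of beta subunits, of which Psmb5, Psmb6 and Psmb7 carry the chymotrypsin-like, caspase-like and trypsin-like sites. The regulatory particle caps the core with a ring of ATPases (Psmc genes) that unfolds the substrate, and with non-ATPase subunits (Psmd genes) of a base and a lid that bind ubiquitin and remove it. Alternative caps, the activators encoded by Psme genes, open the core without ATP, and the Psmg chaperones guide assembly of the alpha ring. In dividing cells the proteasome also removes cyclins and other cell cycle regulators.

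Each passage was represented by 1 RNA preparation hybridized on 4 two-colour arrays, or 3 at p7, against RNA of a whole newborn C57BL/6 male. Arrays d1 and d2 had MOSE RNA in Cy5, and arrays r1 and r2 had the dyes exchanged. A level below is the log2 ratio of MOSE over the newborn reference after normalization, a difference is a later passage minus p2 unless another pair is named, and a clone was called when its Benjamini-Hochberg adjusted p in limma was under 0.01. These p-values measure the spread between arrays of 1 RNA and not between cultures. The 35 arrays had 98.8% to 99.6% of clones above background and at most 0.0852% saturated. Of the 59 member clones, 56 were above background on every array, and 1 of the Psmd4 clones, which was not above background on 17 arrays, was left out of gene values. Of 10 surface epithelium and mesothelium markers measured, 9 lay above the reference at p2, among them Wt1 (5.03), Gata4 (3.42) and Krt7 (2.75), and Cdh1 (-0.87) lay below it. All 6 leukocyte and 3 endothelial markers lay below the reference at p2, as did 5 of 6 stromal markers (Dcn, at 0.70, did not) and 1 of 3 granulosa markers (Inha was at 1.12). Array names fell into 5 series whose meaning the labels do not give. Of the later passages, p18 alone had arrays (3 of 4) in the series of the p2 arrays, so that the comparisons of the other 7 passages with p2 run wholly between series, and for p5 and p28, each a series of its own, series and passage cannot be told apart.

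Few proteasome transcripts passed the test. Among the 59 member clones, 0 were called at p5, p7, p10, p18 and p25, 1 was lower at p14, 2 were lower at p23 and 1 was lower at p28, while 0 were higher at any passage. Of all clones tested, 0.315% were called at p5, 0.0262% at p7 and 0.262% at p10. The share was 1.34% for both p14 and p23, 0.223% for p18, 1.02% for p25 and 2.98% for p28. The clones called were annotated as Psmd6 and Psmd8, both genes of lid subunits. At an unadjusted p under 0.05, p5 and p7 had 8 members each (beside 18.1% and 13.1% of all clones), p10 had 12 (18.6%), and p14 and p18 had 11 each (18.5% and 14.5%). Later, p23 had 15 members (beside 22.3% of all clones), p25 had 18, or 30.5% of the members (20.4%), and p28 had 12, or 20.3% (23.5%). Across passages the level of a member clone varied with a median SD of 0.21, against 0.19 over all clones.

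The clone annotated as Psmd6, one of the scaffold subunits of the lid, showed the largest difference of any member. This clone, H3088F06, had levels of 1.18, 1.32, 1.61 and 2.35 on the p14 arrays, 0.42, 1.42, 0.15 and 0.49 on the p23 arrays and 1.45, 1.23, 1.24 and 1.43 on the p28 arrays, against 3.69, 3.35, 4.72 and 4.63 on the p2 arrays. No array of p14, p23 or p28 reached the lowest p2 array, and the level was above 0 on every one of the 35 arrays. At p2 this clone ranked 31 of 15254 by level, with a mean of 4.10, where the next highest member, a Psmd8 clone, had 1.04. No sequence of the clone was at hand to check that it is Psmd6, and no other clone of the gene could be compared. Of the 10 surface epithelium markers, 7 were also below p2 at p23. At p28, 5 were below it and 5 above it, the latter including Msln (difference 1.33) and Krt8 (0.71). From p2 to p28, Krt7 had levels of 2.75, 1.26, 2.37, 2.24, 1.62, 1.44, 0.40, 1.84 and 1.47. The clone annotated as Psmd6 had 4.10, 1.52, 2.56, 2.68, 1.62, 1.36, 0.62, 1.96 and 1.34. Krt7 is only 1 of the 10 markers. Wt1, Krt19, Bnc1, Gata4 and Cdh2 had another course, each above p2 at p5, p7 and p10, and Wt1 had 5.03 at p2 and 5.76 at p5. Krt8 was below p2 at these passages (differences -0.09, -0.03 and -0.18), and Krt18, Msln and Cdh1 lay on both sides of it. The part of these markers in the values of the clone was not tested.

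The clone annotated as Psmd6 was lower by the test at p14 (difference -2.48 ± 0.37 SE, adjusted p = 0.0077), p23 (-3.48 ± 0.37, adjusted p = 0.0023) and p28 (-2.76 ± 0.30, adjusted p = 0.0011), where 0.147 of the p2 ratio was left. At the remaining passages Psmd6 also had lower levels than p2, with differences between -2.74 at p18 and -1.41 at p7 that did not pass 0.01. Its levels were 0.69 to 2.04 at p5 and 2.16 to 3.08 over p7 and p10, and the mean was lowest at p23. The p14 call was lost (adjusted p = 0.012 to 0.029) without any 1 of the 4 p14 arrays or without array d1, r1 or r2 of p2, and the p23 call (adjusted p = 0.010 to 0.012) without array d1, r1 or r2 of p23 or r2 of p2, whereas the p28 call was kept without any 1 array. With the array series as a block, the p14 difference was -1.38 (adjusted p = 0.58) and that at p23 -2.37 (adjusted p = 0.19), neither called, while that at p18 was called (-2.33, adjusted p = 0.00034). The block ties p14 and p23 to p2 only through array d2 of p18 and array r2 of p25. On array d2 of p18 the clone had 0.12, against 0.97, 2.47 and 1.88 on the other p18 arrays. With no scale normalization the p28 value was -1.65 (adjusted p = 0.00027), and that at p14 was -1.49. The spot was marked as not found on 3 arrays of p5.

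Psmd8, whose counterpart in yeast completes lid assembly, had a different course. Clone H3081H11 had levels of -0.09, 0.13, -0.24 and -0.24 at p23, against 0.89, 0.78, 1.27 and 1.24 at p2 and 1.91, 1.82 and 1.52 at p7. The 3 sets do not overlap, p7 being the highest and p23 the lowest. The transcript fell by 1.15 ± 0.17 at p23 relative to p2 (adjusted p = 0.0068). Between p23 and p7, whose arrays come from 1 series, the difference was -1.86 ± 0.18 (adjusted p = 0.0045), and this was the only member called out of 59 among p14, p23 and p25 set against p7, where the background was 0.937%, 0.433% and 0% of clones. Unadjusted p was under 0.05 for 9 members at p14 (beside 18% of all clones), 9 at p23 (15.9%) and 6 at p25 (11.3%). At p18 the arrays of Psmd8 split by dye, with -0.49 and -0.56 on the direct arrays and 0.28 and 0.61 on the reverse arrays, and the difference from p2 of -1.09 ± 0.28 did not pass (adjusted p = 0.10). The p23 call relative to p2 was lost (adjusted p = 0.011 to 0.028) without any 1 of the p2 arrays or without d1, r1 or r2 of p23, and that relative to p7 (adjusted p = 0.019 to 0.041) without d1, r1 or r2 of p23 or d1 or d2 of p7. With the array series as a block, the difference from p2 shrank to -0.42 (adjusted p = 0.71), a value that again rests on array d2 of p18 and array r2 of p25.

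**Figure D1:**
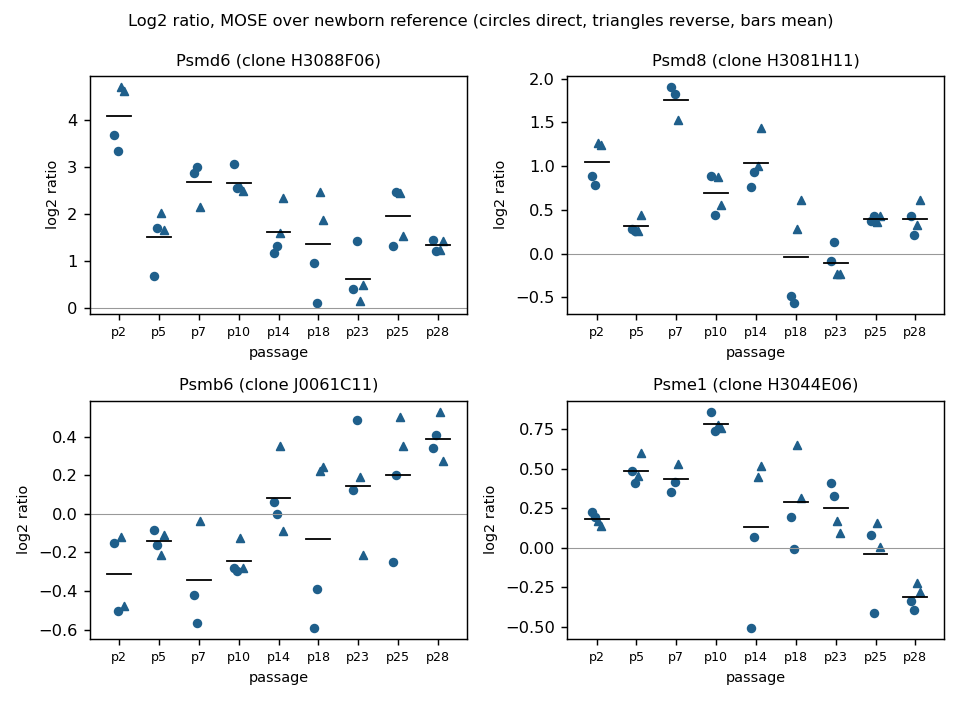
Log2 ratio of MOSE over newborn reference on each array (circles, MOSE in Cy5; triangles, dyes exchanged; bars, mean over arrays) by passage for 4 clones. Psmd6 is highest at p2 (3.35 to 4.72) and lowest at p23, Psmd8 peaks at p7 (1.52 to 1.91), Psmb6 reaches 0.27 to 0.53 at p28, and Psme1 peaks at p10 (0.74 to 0.86).

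The median level over the members, averaged over the arrays of a passage, was lowest at p18 (-0.02) and highest at p28 (0.22). On single arrays the median level over the 59 clones, Psmd6 and Psmd8 included, was 0.14 to 0.24 at p14, -0.04 to 0.01 at p18 and 0.19 to 0.28 at p28, against 0.10 to 0.18 at p2. The medians of all 4 p18 arrays were lower than those of every array of p2, p5, p7, p10, p14, p25 and p28, whereas the p23 arrays (-0.07 to 0.15) overlapped them. The median over all clones stayed between -0.02 and 0.02 on every array.

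In the fits the median difference from p2 was 0.04 at p14 (33 of 59 clones positive, beside 50.4% of all clones), -0.20 at p18 (14 of 59, beside 50.9%) and 0.03 at p28 (33 of 59), beside medians of 0.00, 0.01 and -0.01 over all clones. When the 3 p18 arrays of the p2 series were used alone, the p18 median was -0.18. Relative to p14, the members had a median of -0.26 at p18, with 12 of 59 clones positive, beside 0.00 and 50.4% over all clones. No member was called at p18, p23, p25 or p28 relative to p14 (backgrounds of 0.0131%, 0.00656%, 0.0328% and 0%), and 12, 8, 13 and 6 of them had an unadjusted p under 0.05 (10.8%, 15.9%, 15.9% and 9.33% of all clones). When all 35 arrays were fitted together, 9 member calls were made against p14, all lower, which were Psmb4 and Psmd8 at p18 and p23, Psmc2 at p18, Psma7 at p23 and p25, and Psmb4 and Psmc3 at p25. That fit called 2.52% of all clones for p23, with 1.57% for p18, 1.28% for p25 and 0.105% for p28. The proliferation genes, a list of 13 measured members such as Top2a and Ccnb1, had a median difference from p2 of 1.29 at p14, 0.48 at p18 and 1.30 at p28; the part of proliferation in the proteasome values was not tested.

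**Figure D2:**
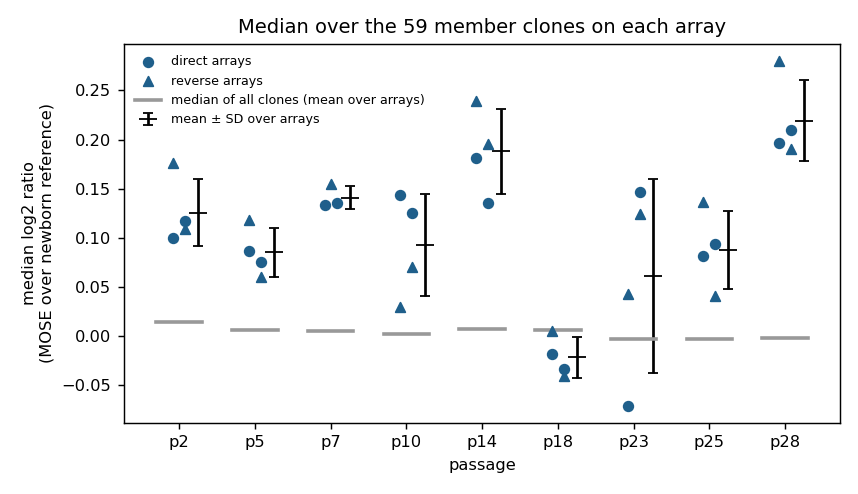
Median log2 ratio over the 59 member clones on each array by passage (circles, MOSE in Cy5; triangles, dyes exchanged; black bars, mean ± SD over the arrays of a passage; grey bars, median of all clones). The p18 arrays sit between -0.04 and 0.01, and those of p28 between 0.19 and 0.28.

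The p14 passage was also set against the other 8 passages with 1 mean per passage. This contrast was chosen after earlier results of these data had shown a shift of proteasome genes at p14, so the counts only describe that shift. Here 40 of the 59 clones were positive and the median was 0.10, beside 51.4% positive and 0.01 over all clones. None passed an adjusted p of 0.05 in limma (background 0.0656%), and 4 had an unadjusted p under 0.05 (6.93% of all clones), which were clones of Psmd13, Psmd2, Psmc5 and Psmb4 with differences between 0.36 and 0.51. The corresponding test of p23, p25 and p28 against the 6 earlier passages called 0 members (background 0%), with 10 at an unadjusted p under 0.05 (15% of all clones).

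**Figure D3:**
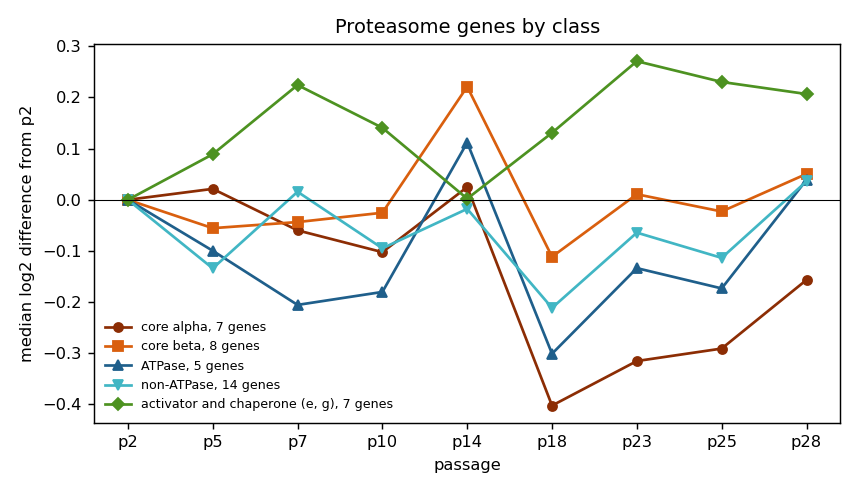
Median log2 difference from p2 over the genes of each class by passage (p2 is 0 by definition). The core and regulatory particle classes stand between -0.40 and -0.11 at p18, whereas the activators and core chaperones together stand at 0.13.

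The alpha subunits, which form the gated outer rings of the core, had late levels below p2 without passing the test. All 7 genes were below p2 at p18 and at p23, with medians of -0.40 and -0.32, and 6 of 7 were below it at p28. Psma4 had the lowest mean of p14 and p28, with differences of -0.49 and -0.28, followed by Psma2 with -0.19 and -0.27, and Psma5 (0.14 and -0.06) and Psma3 (0.02 and 0.02) had the highest. Psma7 had the highest mean level of the alpha genes over the passages (0.72). One of its clones, H3075G03, differed by -0.72 ± 0.15 at p23 (adjusted p = 0.029), short of the threshold.

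Of the 3 beta subunits that carry catalytic sites, none had a difference from p2 that passed the test. Psmb6, with the caspase-like site, was the only member whose level had a slope on passage number past an adjusted p of 0.05: it rose by 0.024 ± 0.005 per passage (adjusted p = 0.042), in a test where 2.77% of clones were called and 14 members had an unadjusted p under 0.05 (19.7% of all clones). Its levels were 0.34, 0.41, 0.53 and 0.27 at p28, against -0.15, -0.50, -0.12 and -0.48 at p2, and these arrays do not overlap. The single comparison gave 0.70 ± 0.14 at p28 (adjusted p = 0.016). The slope had the same sign but did not pass with no scale normalization (adjusted p = 0.19), and leaving out passages singly removed the call for 7 of 9, the exceptions being p14 and p18.

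Differences between the catalytic subunits were not tested. Psmb7, with the trypsin-like site, had levels of -0.37, -0.51, -0.54 and -0.89 at p10, against 0.24, 0.21, -0.02 and -0.12 at p2, a difference of -0.65 ± 0.14 (adjusted p = 0.055) that did not pass. Psmb5, with the chymotrypsin-like site, stayed between -0.22 and 0.23 of p2 at every passage. Of the non-catalytic members, Psmb3 differed by 0.21 at p14 and 0.37 at p28, Psmb2 by -0.11 and -0.30, and Psmb1 by 0.50 at p28. Psmb11, known as the subunit of cortical thymic epithelium, had differences between -0.05 and 0.43, and none of the beta differences from p2 passed.

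The ATPases, which unfold the substrate, stood on opposite sides of p2 at p14 and p18. Of the 5 genes, 4 were above p2 at p14 (median 0.11) and all 5 were below it at p18 (median -0.30), and on the arrays the median of the ATPase clones was 0.11 to 0.26 at p14 and -0.25 to -0.04 at p18. These array medians do not overlap, but those of p2 (0.00 to 0.13) overlap those of p14. Low values were not confined to p18, as the array medians at p10 were -0.22 to -0.03. At each of p5, p7 and p10, 4 of the 5 genes were below p2. Psmc1 had the highest mean of p14 and p28, with differences of 0.38 and 0.31 that both of its clones shared in sign, and Psmc5 (0.22 and 0.16) came next. Psmc6 (-0.37 and -0.04) and Psmc2 (0.10 and 0.04) were lowest. Both clones of Psmc3 were low at p25, with differences of -0.56 ± 0.12 and -0.77 ± 0.15 (adjusted p = 0.038 and 0.023), which did not reach 0.01.

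In the non-ATPase class, 0 clones of genes other than Psmd6 and Psmd8 were called relative to p2. Psmd3 and Psmd12, scaffold subunits of the lid, had the highest means of p14 and p28, with 0.17 and 0.50 for Psmd3 and 0.20 and 0.40 for Psmd12. Psmd12 had been low at p5 (-0.75) through 1 of its clones, J0904B10, on array r2, where it was not above background. Psmd1, the large scaffold of the base, had differences of -0.64 ± 0.14 at p23 and -0.69 ± 0.12 at p25 (adjusted p = 0.035 and 0.018). The deubiquitinase Psmd14 differed by -0.06 at p14 and ranged from -0.30 at p25 to 0.17 at p28. The ubiquitin receptor Psmd4 differed by -0.04 at p14 and -0.11 at p28 and ranged from -0.34 at p18 to 0.24 at p7. The base chaperones Psmd5, Psmd9 and Psmd10 had medians between -0.32 and 0.14 over the passages.

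As a set, the activators and core chaperones did not share the low values of p18. Of these 7 genes, 5 were above p2 at p18 (median 0.13), where 4 of the 34 core and regulatory particle genes were (median -0.21). The 5 were all 3 activators and 2 of the 4 core chaperones. Of the 3 base chaperones, which count among the 34, 1 was above p2 (median -0.22). The low values were not uniform among the 34. Of the 8 beta genes, 6 were below p2 at p18 (median -0.11), but the median level of the beta clones on single arrays was not low. It was 0.13 to 0.22 at p18, against 0.07 to 0.21 at p2. Relative to p14, the p18 level was higher in 4 of the 7 and in 5 of the 34. The difference between the classes was not tested. Psmg4, a chaperone of alpha ring assembly, had levels of 0.79, 0.41, 0.37 and 0.98 at p23, against -1.01, -0.45, -0.07 and -0.04 at p2, a difference of 1.03 ± 0.25 (adjusted p = 0.041). Psme4, a nuclear activator, differed by 0.91 ± 0.15 at p25 (adjusted p = 0.014), with 0.27, 0.03, 0.47 and 0.45 at p25 against -0.55, -0.85, -0.64 and -0.38 at p2. For both genes the passage shown is the one with the largest difference from p2. Its arrays lay above all p2 arrays, but neither gene passed 0.01. How often arrays of other clones separate in this way, here or for other named genes, was not counted. Psmg3, a chaperone that pairs with Psmg4, differed by -0.02 at p14 and by -0.04 at p28.

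Psme1, a subunit of the interferon-inducible activator, had 2 clones that gave different late values. Clone H3044E06 had 0.86, 0.74, 0.77 and 0.76 at p10 and -0.34, -0.39, -0.22 and -0.28 at p28, against 0.23, 0.20, 0.17 and 0.14 at p2. These sets do not overlap, and the differences were 0.60 ± 0.09 at p10 (adjusted p = 0.019) and -0.49 ± 0.11 at p28 (adjusted p = 0.024), short of the threshold. With no scale normalization the p10 difference was called (0.52, adjusted p = 0.0086). The second clone, H3126C12, had 4.36 on array d1 of p10 and 1.22, 0.77 and 0.94 on the others, so that the gene value at p10 (1.27) rests in part on that array. At p28 it differed by 0.25, opposite in sign to H3044E06, and the gene value was -0.12.

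**Figure D4:**
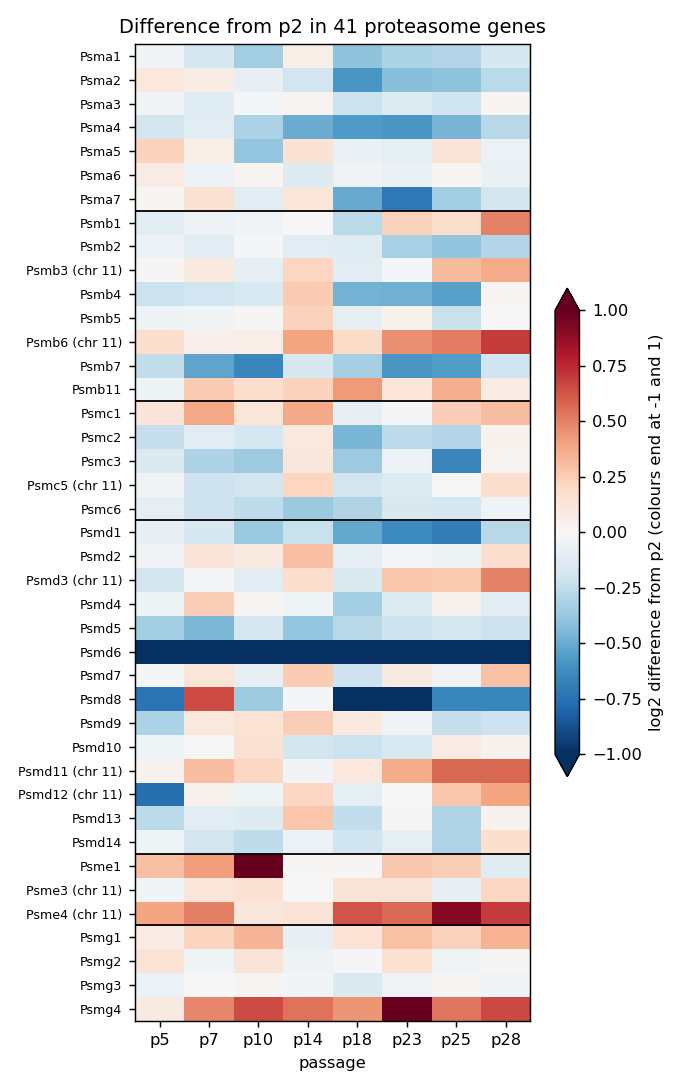
Log2 difference from p2 (colour, with ends at -1 and 1) for the 41 proteasome genes (rows, by class, with genes of chromosome 11 marked) at each later passage (columns). Psmd6 is below -1 at all 8 passages, the alpha genes at the top are negative at p18 and p23, and Psmb6, Psmd11 and Psme4 are positive from p23 to p28.

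The members also differed by position in the genome at the last passages. The 8 proteasome genes on chromosome 11 (Psmb3, Psmb6, Psmc5, Psmd3, Psmd11, Psmd12, Psme3 and Psme4) were all above p2 at p28, with a median of 0.45, whereas 15 of the 33 on other chromosomes were, with a median of -0.04. The 846 other clones assigned to chromosome 11 had a median of 0.12 at p28, and the 9108 clones of other chromosomes 0.02. At p25 the median of the 8 genes was 0.29 (7 positive), at p23 0.20 (6 positive), at p18 0.01 (4 positive) and at p14 0.19 (7 positive). All these differences share the p2 arrays. Over the mean of p23, p25 and p28 relative to the 6 earlier passages, all 8 were positive (median 0.36), and 12 of the 33 were (median -0.03). At p2, Psme4 (-0.60), Psmb6 (-0.31), Psmd11 (-0.20), Psmd3 (-0.10) and Psmb3 (-0.02) were below the reference. Psmd12 (0.02), Psmc5 (0.04) and Psme3 (0.09) were above it. Over all members, 18 of the 21 clones at or below the reference at p2 were higher at p28, and 15 of the 38 above it. The part of the p2 level in the chromosome 11 values was not tested. The grouping by chromosome was noticed in these values, so that no test is given. With no scale normalization the p28 median of the 8 genes was 0.51, again with all 8 positive.

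**Figure D5:**
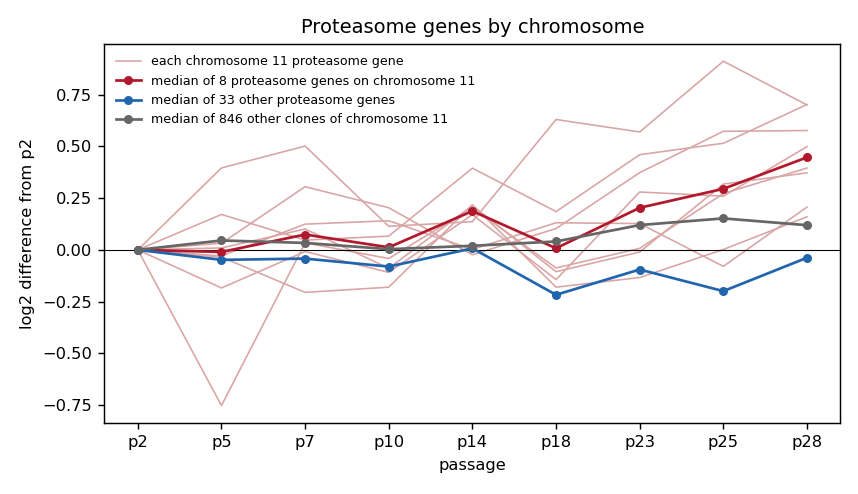
Log2 difference from p2 by passage for the 8 proteasome genes of chromosome 11 (thin lines, each gene; thick red, their median), beside the median of the 33 other proteasome genes (blue) and of 846 other clones of chromosome 11 (grey). At p28 the 3 medians are 0.45, -0.04 and 0.12.

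Promoters were read from RefSeq windows (GRCm38.p6) that hold the 250 bases before a start, and 35 of the 42 symbols had at least 1 of 37 windows. There 4 motifs were searched on both strands, with overlapping matches of different motifs all counted: the core of ETS factor sites (CCGGAAG), the antioxidant response core (TGACNNNGC) bound by the Nfe2l1 and Nfe2l2 factors, the CCAAT box and the GC box (GGGCGG). The ETS core was in 14 of the 37 windows (37.8%), beside 6.91% of all 32851 windows. It was found in 3 of 4 ATPase genes, 5 of 12 non-ATPase genes, 1 of 7 alpha genes and 0 of 5 beta genes. Among the rest it was in 2 of 3 activators and 1 of 3 core chaperones. The window counts include Psmc3ip, not a proteasome component, which had the ETS core and the CCAAT box. The antioxidant response core was in 5 windows (13.5%, beside 10.2% of all), the CCAAT box in 14 (37.8%, beside 33.8%) and the GC box in 19 (51.4%, beside 32.7%). A match describes letters and not a bound site. The following stretches of 30 bases, on the gene's strand, show the motif in capitals for some of the genes named above. The ETS core or its complement comes first, and then the antioxidant response core in the catalytic subunits.
Psmd6 (chr14:14120972-14121001): cagagacgcgaCCGGAAGtcagactggcgg
Psmc1 (chr12:100110163-100110192): tggtggatgcaCTTCCGGcggtggcgattt
Psmc6 (chr14:45329713-45329742): aggcgggccagCCGGAAGgggcggagccag
Psmd11 (chr11:80428585-80428614): taggaacgcgagggcgggtCTTCCGGgtgt
Psmd12 (chr11:107479498-107479527): gatgagcgggcgaCTTCCGGtgcgagtgac
Psme4 (chr11:30771711-30771740): gtggccccgccCCGGAAGtgacttgaggcc
Psmb5 (chr14:54618023-54618052): cgtgaagttgTGACGTCGCggcgttgccag
Psmb6 (chr11:70525327-70525356): acagaggcggactaaagagagTGACGGAGC
Genes with the ETS core thus include Psmd6, whose clone fell at p28, and Psmd11 and Psme4, whose p28 differences of 0.58 and 0.70 were positive but not called. The p28 differences of the other proteasome genes with the ETS core lay between -0.11 (Psmd4) and 0.40 (Psmd12).

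Other lists around the proteasome were read in the same way. Of 11 measured partners and assembly factors, such as the receptor Adrm1, the deubiquitinases Usp14 and Uchl5 and the maturation protein Pomp, 0 were called at any passage, and their median was -0.23 at p18, 0.00 at p14 and -0.03 at p28. The 10 subunits of the COP9 signalosome, a complex built like the lid, also had 0 calls, with medians of 0.14 at p14 and -0.05 at p18. Among 16 ubiquitin, shuttle and unfolding genes, 1 of 2 clones each of Ubb, a ubiquitin precursor, and Uba1, the main ubiquitin-activating enzyme, fell. The differences were -1.72 ± 0.18 at p23 and -1.28 ± 0.18 at p28 for the Ubb clone H3003D07 (adjusted p = 0.0023 and 0.0034), and -1.48 ± 0.17 and -1.06 ± 0.14 for the Uba1 clone H3022E03 (adjusted p = 0.0027 and 0.0030). Both also passed at p25, with -1.45 and -1.43. The second Ubb clone, H3138A08, differed by -0.23 at p23 and -0.11 at p28, and the second Uba1 clone, H3135E07, by -0.94 and -0.63, without a call.

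Of 8 measured transcription factors of proteasome genes, Nfe2l2, which drives stress-induced proteasome expression, fell at p28 in clone H3054B12 (-1.32 ± 0.19, adjusted p = 0.0039), its second clone differing by -0.48 without a call, while Nfe2l1, which restores proteasome genes after inhibition, differed by 0.32 there. In antigen presentation, whose peptides the proteasome supplies, H2-K1 was called higher at p28 in clone H3096A12 (1.24 ± 0.21, adjusted p = 0.0076), and its other clones differed by 1.25 and 0.69 without a call.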

How the data were processed

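RNA of each passage was co-hybridized with newborn RNA on cDNA arrays. The deposited scanner files hold intensity values and quality flags (score) per spot and dye; the authors also deposited a table of log2 ratios, normalized by print-tip loess and scaling as their methods state, which was used as an alternative after 15017 of its 15023 rows were matched to clones. Here background was subtracted with a floor of 0.5, ratios were normalized by print-tip loess (32 blocks) and scaled over 35 arrays in limma 3.58.1 (R 4.3.3), and reverse arrays were turned. Each passage was compared with p2 (adjusted p under 0.01). Tests on 9 passage means (the mean of both dye orientations) used 0.05. Gene values are means over clones. Named genes were those called, the 2 highest and 2 lowest of each class by the mean of p14 and p28, and the catalytic and interferon-related members. Members, lists and the contrast of p14 with the other passages were chosen with earlier results of these data known. Fits were tested on simulated data. Alternatives covered background, loess, scaling, the deposited table, a background filter, gene means, blocks, 1 joint fit and left-out arrays or passages. The array number limits the precision. Symbols were updated with RefSeq.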

Additional observations from a re-analysis of the deposited data

Results flagged for a closer look

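In 56 sets of 4 arrays (the member median and 6 named clones at each passage but p7), 4 held an array far from the other 3 by Dixon's test, where chance flags about 1 in 20. These were Psmd6 at p10, where array d1 had a level of 3.08. Psmd8 at p5 had 0.44 on array r2. Psmb6 at p10 had -0.13 on array r1. Psmg4 at p10 had 1.11 on array r2. None of these passages gave a call for the gene concerned relative to p2, and the member medians held no such array.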

How the results depend on the processing

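The 4 lower calls relative to p2 (0.847% of the member tests, where 0.503% of all tests were lower calls) became 9 with all 35 arrays in 1 fit (1.91%, beside 1.63%), 7 with no scale normalization (1.48%, beside 0.522%), 6 over clones above background (1.30%, beside 0.893%), 2 with global loess (0.424%, beside 0.318%), 1 with the deposited table (0.216%, beside 0.385%) and 1 with scaling within each passage (0.212%, beside 0.208%), and the 0 higher calls became 3 with the joint fit, 1 with no scaling and 1 over clones above background on every array. Leaving out single arrays gave 1 to 4 lower and 0 higher calls. The array labels do not pair the arrays (31 same-label pairs correlated between -0.07 and 0.24), and with the replicate block 1 of the 4 calls, Psmd6 at p28, was kept, while Psmd6 at p18 was called (adjusted p = 0.0093). Psmd6 at p28 was called under all 17 alternatives, Psmd6 at p14 under 6 of 18, at p23 under 10 of 18, and Psmd8 at p23 under 5 of 18. With array series as a block, which leaves out p5 and p28, 0 of the 3 calls at p14 and p23 were kept and 2 lower calls were made at p18 (Psmd6 and Psmd8), and Psmd6 at p10 was reversed to 0.24 (adjusted p = 0.90). In this fit only array d2 of p18 and array r2 of p25 tie p14 and p23 to p2. For p10 the only tie is array d2 of p18.

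The 1 call relative to p7 became 0 with no scaling, with scaling within passages and with the deposited table, 2 over clones above background, and 0 to 2 without single arrays. The 0 calls relative to p14 became 9 in the joint fit and stayed 0 without single arrays. The slope call became 0 with global loess, no scaling, scaling within passages and the deposited table, and 0 to 1 without single passages. The p14 test and the late test gave 0 throughout their alternatives, single passages left out included.

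The p14 median of the members (0.04) was 0.089 with global loess, 0.12 with no scaling, 0.095 with scaling within passages, 0.078 with the deposited table, 0.019 with gene means, 0.013 with the series block and 0.036 to 0.13 without single arrays. The p18 median (-0.20) was -0.16 with gene means, -0.16 with scaling within passages and -0.23 to -0.16 without single arrays. The p28 median (0.03) was 0.10 with no scaling, with scaling within passages and with the deposited table, and -0.0091 to 0.078 without single arrays. The p18 median relative to p14 (-0.26) was -0.21 with gene means, -0.32 with global loess, -0.31 with normexp, -0.30 with no scaling, -0.30 with scaling within passages and -0.31 to -0.21 without single arrays. The causes were not tested. Alternatives for p7 and p14 other than scaling and the joint fit, and those for medians, were chosen after seeing the data.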

Other observations

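Clones of the same gene did not always move alike. Among 20 pairs of clones of 12 proteasome genes, Pearson's r over the 9 passage levels ranged from -0.36 (Psmg3) to 0.92 (Psmc2), with a median of 0.44, and in 11 pairs the p28 difference from p2 had opposite signs. The 3 Psmc2 clones had r of 0.78 to 0.92 with each other, both Psmc3 clones 0.87 and both Psma7 clones 0.79. In Psma3 the clone H3029A12 differed by -0.32 at p28 and its other clones by 0.15 and 0.24. In Psmd7 the clones differed by 0.05 and 0.54. Points of a pair share their arrays, and r is given as a description.

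The later difference also went with the p2 level. Of the 38 member clones above the reference at p2, 33 were lower at p18 and 23 were lower at p28, and of the 21 at or below it, 12 were lower at p18 and 3 at p28. The p2 level enters the difference itself. With no scale normalization the counts at p28 were 16 of 38 and 5 of 21. The average spread of log ratios before scaling was 0.302 at p28 and 0.208 at p2.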
